A study of Mus musculus with 96 samples.

Results

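The genes described here encode the initiation and elongation factors of cytoplasmic translation. They were taken as every gene symbol in the deposited table that starts with Eif or Eef followed by a digit, without the eIF2 kinases (Eif2ak symbols) and without pseudogene symbols holding -ps. The rule gave 59 of 23481 symbols, and 44 of the 59 passed the filter on low counts, as did 4963 symbols in all. The 15 factors below the filter are given by name and count only.

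The cells were macrophages derived from bone marrow of C57BL/6 mice (male, 8 weeks of age) in medium conditioned with MCSF, and 12 groups of 8 libraries were made (4 on each of 2 plates, 96 libraries). In 11 groups a pretreatment of 30 min with DMSO or 1 of 10 compounds preceded 4 h of lipopolysaccharide (LPS), which macrophages sense as a sign of bacteria. The compound groups keep the names of the labels: BrefA, Tunicamycin, Halofuginone, Torin, tBHQ, Dexa, pGE2, Baflo, ZVAD and Caspase-1. The last group, NoStim, received no LPS, has no stated vehicle and carries the replicate letters A to D in its titles, while all LPS groups carry E to H. No compound was given without LPS, and for doses the sources used here give no value. The labels do not say what the letters stand for, whether libraries came from separate cultures, or whether those with the same letter on the 2 plates share a lysate, so p-values measure the spread between these libraries, which may be technical.

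Translation starts when eIF2, loaded with the initiator tRNA, joins the small ribosomal subunit together with eIF1, eIF1A, eIF3 and eIF5. The eIF4 proteins bring the capped mRNA: eIF4E binds the cap, eIF4G is the scaffold and eIF4A the helicase, and eIF4E-binding proteins hold eIF4E back unless mTOR phosphorylates them. Stress kinases phosphorylate eIF2 and so slow initiation on most mRNAs while translation of Atf4 mRNA rises, and the elongation factors eEF1 and eEF2 then carry tRNAs and move the ribosome along the message. Among the compounds, Torin is the name of inhibitors of the mTOR kinase, halofuginone blocks prolyl-tRNA synthetase, tunicamycin blocks N-linked glycosylation in the endoplasmic reticulum, and tBHQ is an electrophile that activates NRF2.

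Libraries held 80196 to 379198 counts. Rn45s, the ribosomal RNA precursor, took 39.0% to 49.1% of counts in the 8 Halofuginone libraries and 6.57% to 30.9% in the other 88, and Halofuginone totals (80196 to 136526) lay below all others (148284 to 379198). The library least like its group was Tunicamycin plate 2 F. Across genes, its departure from the mean of all libraries had a correlation of -0.03 with the Tunicamycin profile on plate 1, against 0.54 for the median library and 0.19 for Tunicamycin plate 1 H, the next lowest. All 10 macrophage markers found in the table passed the filter, whereas no marker of T cells, B cells, granulocytes, fibroblasts, erythroid or dendritic cells did. Levels below are scaled CPM, which are counts per 1e+06 of the library total over filtered genes after TMM scaling, and 1 count was worth 2.76 to 18.7. In these bulk libraries, fewer cells of a type and less RNA per cell cannot be told apart.

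Taken as a share of counts other than Rn45s and Lars2, the 59 factors held 1.17% ± 0.02 (SD, n = 8) in DMSO libraries and 1.30% ± 0.04 in NoStim libraries. BrefA libraries held 1.58% ± 0.07 and ran from 1.45% to 1.68%, above every DMSO library (1.14% to 1.21%). tBHQ (1.37% ± 0.06), Tunicamycin (1.33% ± 0.08) and NoStim libraries also all lay above every DMSO library, with lowest values of 1.31%, 1.24% and 1.24%. Torin (1.25% ± 0.07), Halofuginone (1.25% ± 0.05) and Caspase-1 (1.23% ± 0.07) overlapped the DMSO range, and Dexa, pGE2, Baflo and ZVAD stayed between 1.16% and 1.19% on average. The share is a sum dominated by the most counted members and carries no test of its own.

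Tests were edgeR quasi-likelihood F tests with Benjamini-Hochberg adjustment over all 4963 genes, with group and plate as terms, and a gene "rose" or "fell" where the adjusted p was under 0.05. Fold changes are on the log2 scale and stand with the SE from that model. Of the 44 tested factors, 12 passed in none of the 11 comparisons (LPS and 10 compounds), 17 in 1, 8 in 2, 2 in 3, 3 in 4 and 2 in 5. The last 2 were Eif1a and Eif5, which act in choosing the start codon. All compound comparisons share the DMSO libraries, as does the LPS comparison.

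**Figure D1:**
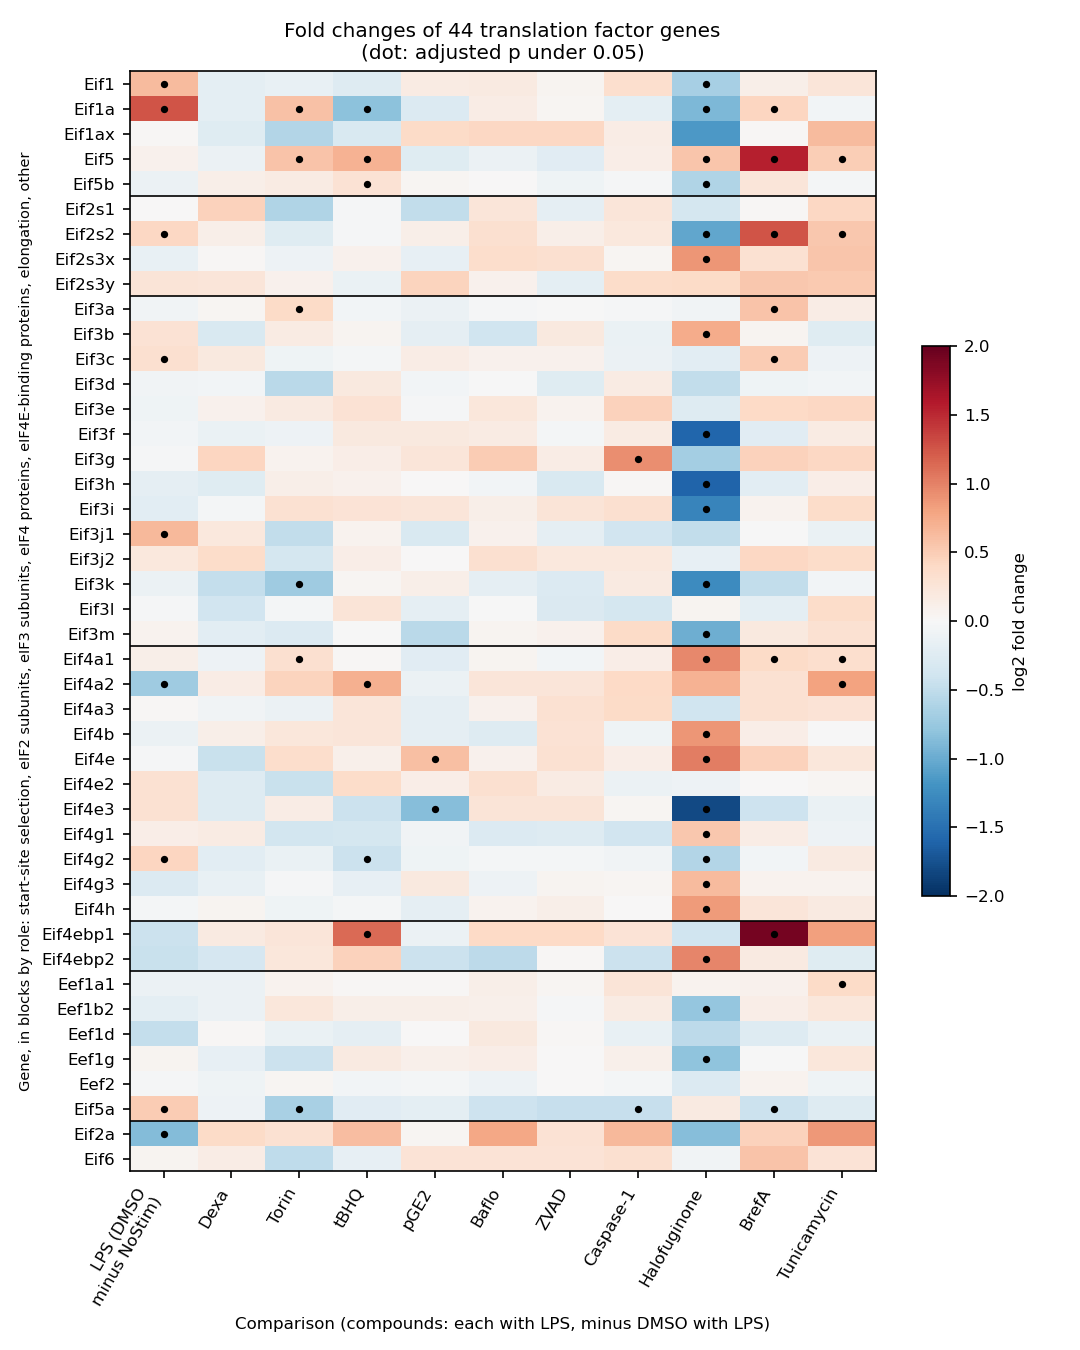
Log2 fold changes (colour, from -2 to 2) of the 44 tested translation factor genes (rows, in blocks by role) in the LPS comparison and in each compound group against DMSO (columns, n = 8 libraries per group), with a dot where the adjusted p is under 0.05. Dots crowd in the Halofuginone column (23 of 44) and are missing from the Dexa, Baflo and ZVAD columns.

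LPS (with DMSO, against NoStim) raised 7 of the 44 factors and lowered 2 (20.5%), against 36.8% of all tested genes called in the same comparison, DMSO minus NoStim. The median was -0.02 over the factors and -0.09 over all tested genes, and since NoStim has other letters than all LPS groups, whatever the letters stand for and LPS cannot be told apart. Eif1a, whose protein helps the small subunit scan for the start codon, had 60.1, 96.9 and 148 scaled CPM (lowest, median and highest of 8) in NoStim libraries and 163, 248 and 321 in DMSO libraries. The ranges did not overlap, and the log2 fold change was 1.26 ± 0.16 (adjusted p = 1.5e-11). Eif1, the partner of eIF1A in start-codon selection, ran from 212 to 304 in NoStim libraries and from 332 to 443 with LPS, again without overlap (0.63 ± 0.13, adjusted p = 1.96e-05).

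Among the subunits, Eif2s2, which encodes eIF2 beta, rose by 0.42 ± 0.11 (adjusted p = 0.000912), and all 8 DMSO libraries lay above the NoStim median. Eif3j1, a loosely bound eIF3 subunit, rose by 0.65 and Eif3c, a core subunit, by 0.32, the other 12 eIF3 genes being not called. Eif5a, which relieves ribosomes stalled on difficult peptide bonds, rose by 0.51, and Eif4g2, an eIF4G relative that does not bind eIF4E, by 0.43. The DMSO libraries of Eif5a had a mean of 319 scaled CPM (SD 107) above a median of 270. All other groups but Halofuginone (361) had a lower mean. The 2 factors that fell were Eif4a2 (-0.72 ± 0.25), another eIF4A helicase, and Eif2a (-0.87 ± 0.32), which is not an eIF2 subunit. Each had a range that overlapped NoStim. Eif1a, Eif1 and Eif2s2 passed in all 13 alternative fits. Eif3c lost its call in 7 of the 13 (RLE and upper-quartile scaling among them), Eif4a2 in 6 and Eif2a in 5. No factor was lower on plate 2 alone (5 called in all), without letter E, without letter F, or with no filter on low counts, where scaling moved the median of the same 4963 genes by 0.13. Of all genes, 331 of 4886, 655 of 5118, 622 of 4981 and 849 of 16022 were lower in these fits. RLE and upper-quartile scaling each moved the same median the other way, by -0.096, and DESeq2 by -0.098. Where a letter was left out, NoStim letter A went with E, B with F, C with G and D with H. The labels do not give this match. Eif1a has the near copy Eif1ax (not called, 53 counts over the 8 DMSO libraries) and Eif3j1 the near copy Eif3j2, and reads shared by such pairs could be split by the counting.

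Genes that set the state of eIF2 were read in the same comparison. Of 10 listed eIF2 kinases and phosphatase subunits, 5 were tested and 3 rose with LPS, against the 36.8% of all genes called: Eif2ak2, the kinase that senses double-stranded RNA (1.51 ± 0.18), Ppp1r15b, the constitutive subunit that directs eIF2 dephosphorylation (1.46 ± 0.21), and Nck1, an adaptor (1.91 ± 0.30). Of 20 listed cofactors at the cap, helicase and poly(A) tail, 16 were tested, with 4 higher and 2 lower, a share near that of all genes. The largest were Larp1, which binds mRNAs with pyrimidine-rich starts (1.59 ± 0.14), Gigyf1, a partner of the eIF4E relative 4EHP (-1.38 ± 0.23), and Pdcd4, an inhibitor of eIF4A (-1.25 ± 0.34).

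BrefA raised 7 factors and lowered 1 (18.2%), against 16.9% of all genes. The share is near that of all genes, and it includes the 2 largest rises of any factor in the 11 comparisons. Eif5, the GTPase-activating protein of eIF2, had 267, 335 and 409 scaled CPM (lowest, median and highest of 8) in DMSO libraries and 850, 1002 and 1208 in BrefA libraries. All 8 BrefA libraries lay above all 8 DMSO libraries, and the log2 fold change was 1.55 ± 0.12 (adjusted p = 2.81e-23). Eif2s2 went from 404, 512 and 624.8 to 1084, 1282 and 1402, again without overlap (1.26 ± 0.10, adjusted p = 6.03e-21). Eif4ebp1, the eIF4E-binding protein that mTOR controls, had 13.4, 25.1 and 35.2 in DMSO libraries and 33.9, 104 and 129 in BrefA libraries. Only the lowest BrefA library fell inside the DMSO range (1.92 ± 0.27, adjusted p = 1.55e-10).

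The promoters of Eif5 and Eif2s2 are shown because these genes moved together in BrefA and Tunicamycin libraries. They come from RefSeq (GRCm38.p6), run 5′ to 3′ on the gene's strand and cover 250 bases before the annotated start and the first 20 of the transcript. Eif5 lies at chr12:111537851-111538120 on the plus strand, and Eif2s2 at chr2:154892887-154893156 on the minus strand. Neither stretch held any of the 5 motifs searched on either strand (the E box CACGTG, the cyclic AMP element TGACGTCA, the composite core TGATGNAA of ATF4 and CEBP proteins, the ETS core CCGGAAG and the NRF1 core GCGCATGC), which would have been in capitals. This says only that these letters are not in the window.
Eif5: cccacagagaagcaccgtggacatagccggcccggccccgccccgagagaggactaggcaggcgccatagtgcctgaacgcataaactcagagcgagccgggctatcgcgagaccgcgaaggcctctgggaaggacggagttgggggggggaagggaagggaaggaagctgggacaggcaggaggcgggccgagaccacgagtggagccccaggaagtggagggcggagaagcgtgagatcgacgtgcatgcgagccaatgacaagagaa
Eif2s2: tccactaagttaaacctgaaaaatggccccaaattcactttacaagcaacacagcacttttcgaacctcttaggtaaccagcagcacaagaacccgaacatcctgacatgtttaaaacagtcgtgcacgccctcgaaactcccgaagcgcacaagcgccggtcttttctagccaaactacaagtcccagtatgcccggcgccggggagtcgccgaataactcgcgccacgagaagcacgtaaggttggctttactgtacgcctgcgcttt

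Eif5 also holds Snora28 on its strand and Eif2s2 overlaps the gene a (nonagouti) on the other strand, per GENCODE M21, and the sources used here do not say whether counting used strand. The smaller rises in BrefA libraries were Eif3a (0.57 ± 0.13, no overlap with DMSO) and Eif3c (0.50 ± 0.13), both core eIF3 subunits, Eif1a (0.43 ± 0.15) and the helicase gene Eif4a1 (0.38 ± 0.11). Eif5a fell by 0.43 on the log2 scale. Its mean of 236 scaled CPM was close to those with Baflo (239) and ZVAD (233), where it was not called. Eif2s1, which encodes the eIF2 alpha subunit that stress kinases phosphorylate, was not called (0.03 ± 0.25), nor were Eef1a1 (0.09 ± 0.10) and Eef2 (0.07 ± 0.12), which carry the tRNA and move the ribosome. Eif4ebp1, Eif5 and Eif2s2 passed in all 14 alternative fits. Leaving out letter F on both plates left 4 called factors and plate 1 alone left 3, and with the same letters of both plates summed Eif1a and Eif5a were not called. Over all genes these fits called 734 of 4981, 519 of 5118 and 790 of 6947, against 840 of 4963 as reported.

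Of 7 listed stress transcription factors 5 were tested in the same libraries, and 3 rose and 1 fell, where 16.9% of all genes were called. Atf4, one of the mRNAs whose translation rises when eIF2 is phosphorylated, rose by 2.62 ± 0.16, Ddit3, which encodes CHOP, by 3.18 ± 0.33 and Cebpg, a dimer partner of ATF4, by 1.85 ± 0.23. Atf3, another stress-induced factor, fell by 1.01 on the log2 scale (SE 0.16). Eif2ak2 was lower (-1.29 ± 0.18), whereas Ppp1r15a, the stress-induced phosphatase subunit (0.92 ± 0.30), and Impact, which restrains the eIF2 kinase GCN2 (1.71 ± 0.42), were higher.

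**Figure D2:**
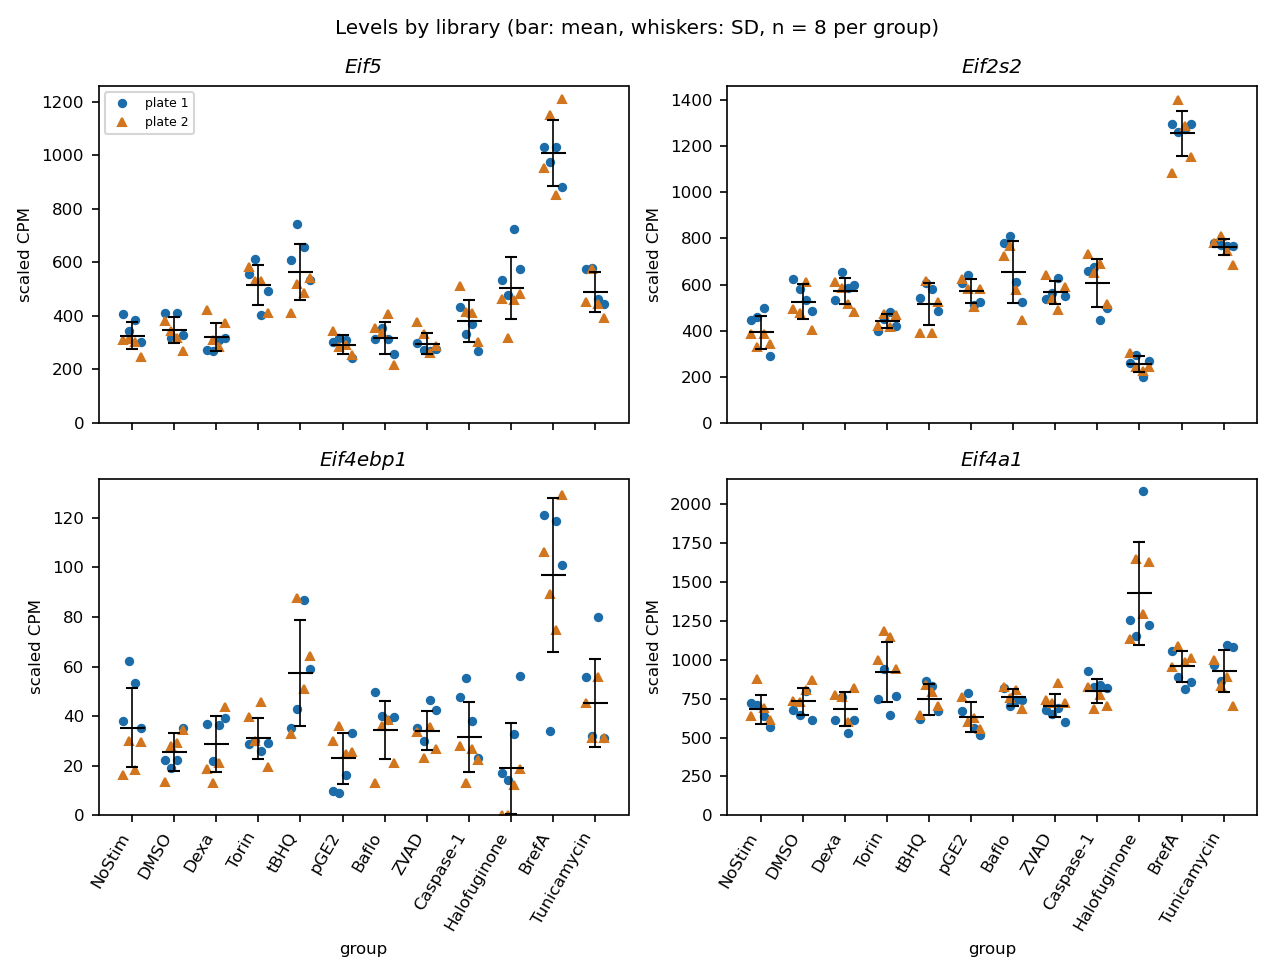
Scaled CPM of Eif5, Eif2s2, Eif4ebp1 and Eif4a1 in each of the 96 libraries by group (points: plates 1 and 2, bars: mean, whiskers: SD, n = 8 per group). BrefA libraries stand above every other group for Eif5 (lowest 850) and Eif2s2 (lowest 1084), and Halofuginone libraries are lowest on average for Eif2s2 (253, against 392 in NoStim, whose lowest library at 289 lies within the Halofuginone range) and highest for Eif4a1 on average (1427).

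Tunicamycin raised 5 factors and lowered 0 (11.4%), against 4.78% of all genes. Eif2s2 ran from 686 through a median of 769 to 809 scaled CPM, above the whole DMSO range, with a log2 fold change of 0.54 ± 0.11 (adjusted p = 0.000213). Eif5 rose by 0.50 ± 0.12 (391 to 578, all above the DMSO median), Eif4a1 by 0.34 ± 0.11 and Eif4a2 by 0.80 ± 0.25. Eef1a1, which delivers tRNAs to the ribosome, rose by 0.38 ± 0.10 and spread from 1497 to 3120. Eif4ebp1 had a value of 0.81 ± 0.29 and was not called (adjusted p = 0.0708). Of the stress transcription factors, Atf4 (1.52 ± 0.16), Ddit3 (1.56 ± 0.36) and Cebpb (1.26 ± 0.20) rose.

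Eif2s2 passed in 14 of the 16 alternative fits and Eif5 in 13, while Eef1a1, Eif4a2 and Eif4a1 passed in 9, 7 and 5. Without Tunicamycin plate 2 F alone 5 factors were called (232 of 5084 genes in all). Without that library and plate 1 H, 2 were called (121 of 5230). Leaving out letter E, F, G or H on both plates in every group gave 3, 1, 2 and 2 called factors. Over all genes these fits called 158, 108, 95 and 98, against 237 in the reported fit. The same letters of both plates summed gave 2 factors (124 of 6947 genes), and plate 2 alone gave 0 (5 of 4886). In Tunicamycin plate 2 F, Eif5 (576) and Eif2s2 (809) were inside or above the range of the other 7 Tunicamycin libraries, while Eif3i (41.5) and Eif1 (316) were below it.

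Compared directly, Tunicamycin libraries had 7 factors lower and 1 higher than BrefA libraries (17% of all genes were called). Eif5 (-1.05 ± 0.12, adjusted p = 1.82e-13) and Eif2s2 (-0.72 ± 0.10, adjusted p = 5.51e-09) were lower with no overlap of the libraries. Eif4ebp1 was lower by more, at -1.10 ± 0.23, but the Tunicamycin range of 31.0 to 79.9 overlapped the lowest BrefA library. Eif3c (-0.60), Eif1a (-0.48), Eif3a (-0.42) and Eif5b (-0.28), the GTPase that joins the ribosomal subunits, were also lower, and Eef1a1 was higher (0.29 ± 0.10). Eif4ebp1, Eif5 and Eif2s2 passed in all 16 alternative fits. Leaving out letter F or G left 5 called factors each, Eef1a1 lost its call in 8 of the 16 fits and Eif5b in 9, and on plate 2 alone Eef1a1 and Eif5b changed sign (-0.10 and 0.02). Without letter F 695 of all 4981 genes were called, and without letter G 558 of 4806. With no doses in the sources used here, the sizes cannot be set on a common scale of exposure.

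tBHQ raised 4 factors and lowered 2 (13.6%), against 37.5% of all genes. Eif4ebp1 had 32.7, 54.9 and 87.8 scaled CPM (lowest, median and highest of 8), all above the DMSO median of 25.1, and rose by 1.14 ± 0.28 (adjusted p = 0.000288). Eif5 ran from 408 to 742, touching the highest DMSO library at 409 (0.70 ± 0.12, adjusted p = 5.65e-07). Eif1a went the other way than in the LPS comparison: its tBHQ libraries ran from 90.0 to 170, and it fell by 0.82 on the log2 scale (SE 0.16, adjusted p = 5.32e-06).

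The other tBHQ calls were smaller or less stable. Eif4a2 rose by 0.71 ± 0.25 and Eif5b by 0.29 ± 0.10, and Eif4g2 fell by 0.43 on the log2 scale (SE 0.14). Eif4ebp1, Eif1a and Eif5 passed in all 14 alternative fits, whereas leaving out letter F, or plate 2 alone, left 3 called factors. Without letter F 1489 of all 4981 genes were called, and on plate 2 alone 1129 of 4886. Eif4a2 and Eif5b lost their calls with the same letters of both plates summed and with no filter. The fit with no filter moved the median of the same genes by -0.12. It gave 3 factors higher and 4 lower (1001 and 1046 of 16022 genes in all). RLE scaling, upper-quartile scaling and DESeq2 moved that median the other way, by 0.098, 0.087 and 0.10. The eIF2 regulators that LPS raised were lower than in DMSO libraries: Eif2ak2 (-1.35 ± 0.18), Nck1 (-1.54 ± 0.28) and Ppp1r15b (-1.08 ± 0.21), as was Larp1 (-1.51 ± 0.14). Atf4 (1.37 ± 0.16), Ddit3 (2.68 ± 0.34) and Impact (2.90 ± 0.40) rose.

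Torin raised 4 factors and lowered 2 (13.6%), against 16.6% of all genes, and under upper-quartile scaling the split was 2 higher and 4 lower. Of all genes, that scaling gave 439 higher and 417 lower. Eif1a ran from 286 to 428 scaled CPM with a median of 365, all above the DMSO median of 248 (0.58 ± 0.15, adjusted p = 0.00161), and Eif5 from 401 to 610 (0.56 ± 0.12, adjusted p = 0.000204). Eif5a had 141, 182 and 344 against 205, 270 and 503 in DMSO libraries and fell by 0.66 on the log2 scale (SE 0.15, adjusted p = 0.000284). Its mean was 205 with Torin and 319 in DMSO libraries. With Baflo (239) and ZVAD (233) it was also below the DMSO mean, without a call. Eif3k, a peripheral eIF3 subunit, was also lower (-0.71 ± 0.23), and Eif3a (0.38 ± 0.13) and Eif4a1 (0.32 ± 0.11) were higher.

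The binding proteins through which mTOR acts on eIF4E were not called at the RNA level with Torin (Eif4ebp1 0.24 ± 0.32). Of 17 listed genes of mTOR and MNK signalling, 8 were tested and 0 called there. Leaving out letter F left 3 called factors, summing the same letters of both plates left 4 (Eif3a and Eif4a1 lost), the fit with no filter on low counts 3, plate 2 alone 2 and plate 1 alone 0. Over all genes these fits called, in order, 664 of 4981, 727 of 6947, 758 of 16022, 329 of 4886 and 448 of 5118. The reported fit called 822 of 4963.

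The remaining compounds left few marks on these genes. With pGE2, Eif4e, the cap-binding protein, ran from 68.0 to 188 scaled CPM with a median of 124 against 85.4 in DMSO libraries (0.61 ± 0.19, adjusted p = 0.0201), and Eif4e3, a relative of eIF4E, was lower (-0.85 ± 0.31, adjusted p = 0.0461). These 2 of 44 (4.55%) stand against 11% of all genes, and both calls were fragile: RLE and upper-quartile scaling kept Eif4e only, and leaving out letter E, F, G or H gave 1, 1, 0 and 0. Over all genes, RLE and upper-quartile scaling called 560 and 553, against 546 as reported. Leaving out the letters called 436, 494, 403 and 441. With Caspase-1, Eif3g, an RNA-binding eIF3 subunit, was higher (0.92 ± 0.23, adjusted p = 0.0105) with a range of 67.4 to 196 against 38.7 to 78.2. Eif5a was lower in these libraries (-0.46 ± 0.14, adjusted p = 0.046), making 2 of 44 against 3.06% of all genes. The Eif5a mean with Caspase-1 (231) was close to those with ZVAD (233) and Baflo (239), where it was not called. Leaving out letter E, F or H gave 0, 0 and 1, RLE scaling 1, and each plate alone 0. Over all genes, leaving out these letters called 18 of 5118, 56 of 4981 and 69 of 4965, against 152 as reported. RLE scaling called 150, plate 1 alone 200 of 5118 and plate 2 alone 3 of 4886.

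No factor was called by edgeR with Dexa, Baflo or ZVAD. The background of all genes was 3.55% with Dexa, 0% with Baflo and 0% with ZVAD. At an unadjusted p under 0.05, 3, 4 and 1 of the 44 factors passed, and DESeq2 called 0 in each. The median log2 fold change over the factors was -0.08, 0.09 and 0.05.

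Halofuginone had the most calls: 10 factors rose and 13 fell (52.3%), against 40.3% of all genes. The median log2 fold change was -0.31 over the factors and -0.14 over all tested genes. Of the 11 tested eIF4 proteins 6 rose and 2 fell, with a median of 0.63, while of the 14 eIF3 genes 1 rose and 5 fell, with 12 below 0 and a median of -0.50. Of all 4963 genes, 844 rose and 1157 fell. Eif3b, Eif4g1, Eif4g3 and Eif3m passed in 4, 6, 7 and 8 of the 14 alternative fits. The other called eIF4 and eIF3 genes passed in 11 to 14, counting for Eif4b a call in the other direction. With no filter on low counts the split of the factors was 3 higher and 19 lower, 16 of them among the 23. Of all 16022 genes in that fit, 576 were higher and 1770 lower. The fit with no filter rescales the libraries and moved the median of the same 4963 genes by -0.37 (to -0.51). There 3 eIF4 genes were higher (Eif4e, Eif4a1 and Eif4h) and 2 lower with a median of 0.25, and 0 eIF3 genes were higher and 10 lower with a median of -0.87. Eif4b, Eif4g1, Eif4g3, Eif4ebp2, Eif3b, Eif2s3x and Eif5 were not called in it, and Eif3a, Eif3c and Eef2 were called lower. Without letter G, 5 rose and 11 fell (624 and 910 of 4806 genes in all). The calls rest on libraries whose depth and Rn45s share do not overlap those of any other group, so the compound and these library properties cannot be told apart.

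**Figure D3:**
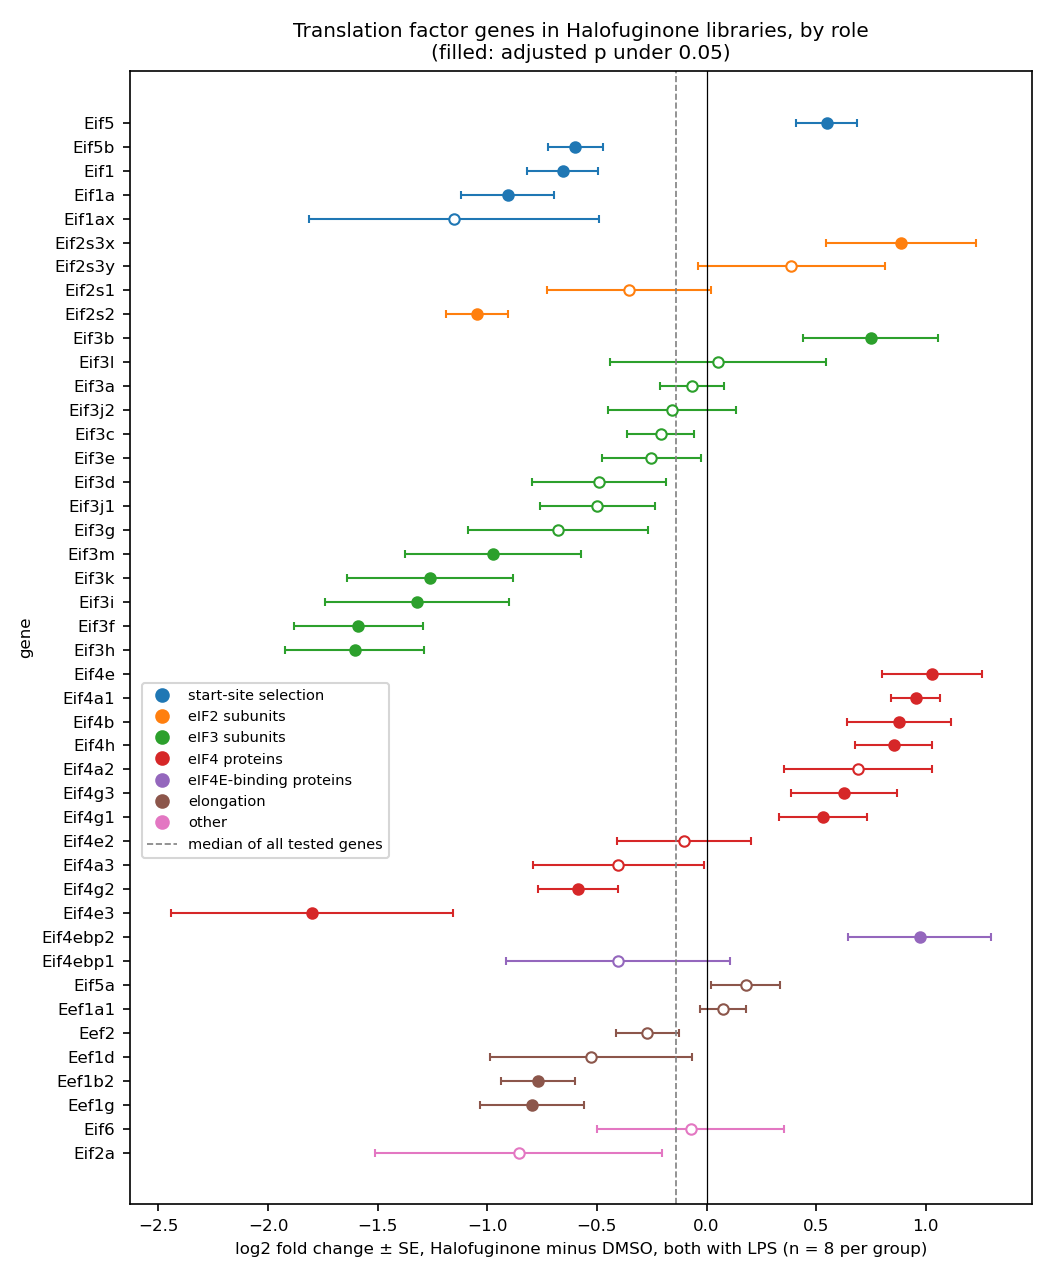
Log2 fold change ± SE of each of the 44 tested factors in Halofuginone minus DMSO libraries (n = 8 per group), coloured and ordered by role, filled where the adjusted p is under 0.05, with the median of all tested genes dashed at -0.14. Most eIF4 genes lie right of 0 (7 of 11) and most eIF3 genes left of it (12 of 14).

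Among the eIF4 proteins, Eif4a1 had 615, 733 and 869 scaled CPM (lowest, median and highest of 8) in DMSO libraries and 1132, 1273 and 2086 in Halofuginone libraries. The ranges did not overlap, and the log2 fold change was 0.95 ± 0.11 (adjusted p = 1.24e-12). Eif4e had 93.5, 182 and 248 against 71.7, 85.4 and 99.5, and all 8 libraries lay above the DMSO median (1.03 ± 0.23, adjusted p = 0.000133). Eif4h and Eif4b, which stimulate the eIF4A helicase, rose by 0.85 ± 0.18 and 0.88 ± 0.24, and the scaffold genes Eif4g1 and Eif4g3 by 0.53 ± 0.20 and 0.63 ± 0.24. Eif4g2 fell by 0.59 on the log2 scale, and Eif4e3 was lower at few counts (-1.80 ± 0.64, 6 counts over the 8 libraries, 4 of them at 0). Eif4ebp2 rose by 0.97 ± 0.33, whereas Eif4ebp1, with 10 counts in all 8 libraries together and 2 libraries at 0, was not called (-0.40 ± 0.51).

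Among the eIF3 genes, Eif3f had 14.0, 43.3 and 95.7 scaled CPM in Halofuginone libraries against 103, 138 and 213 in DMSO libraries, without overlap (-1.59 ± 0.29, adjusted p = 2.3e-07). Eif3i ran from 16.4 to 37.2 against 43.8 to 95.2, again without overlap (-1.32 ± 0.42, adjusted p = 0.00253). These ranges rest on few counts. Eif3f had 25 and Eif3i 13 over the 8 Halofuginone libraries, against 302 and 129 in DMSO libraries. Eif3h fell by 1.60 on the log2 scale (SE 0.32, adjusted p = 1.09e-06) with 24 counts over the 8 libraries, and its highest library, plate 2 E at 128, lay inside the DMSO range. Eif3k (-1.26 ± 0.38, 15 counts) and Eif3m (-0.97 ± 0.40, 17 counts) were lower and Eif3b, a scaffold of the complex, was higher (0.75 ± 0.31, 68 counts). The largest subunits were not called: Eif3a had -0.07 ± 0.15 and Eif3c -0.21 ± 0.15.

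**Figure D4:**
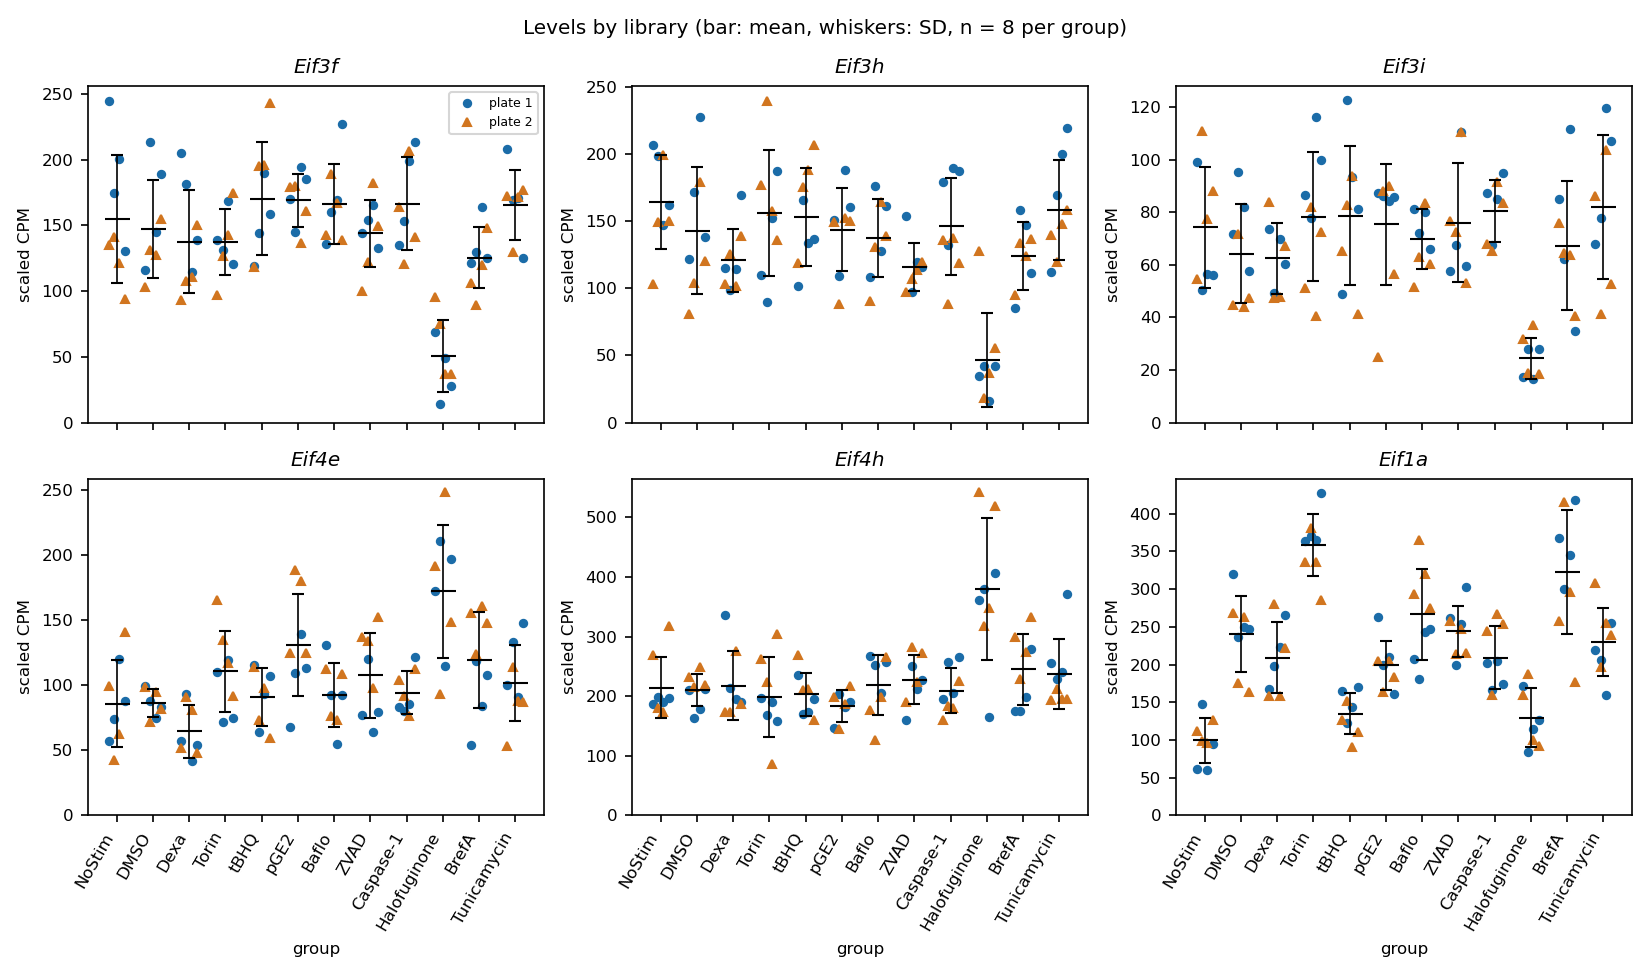
Scaled CPM of 3 eIF3 genes (Eif3f, Eif3h, Eif3i), 2 eIF4 genes (Eif4e, Eif4h) and Eif1a in each of the 96 libraries by group (points: plates 1 and 2, bars: mean, whiskers: SD, n = 8 per group). The Halofuginone libraries are lowest on average for the eIF3 genes (46.8 for Eif3h) and highest for Eif4h, while Eif1a is lowest in NoStim (99.6) and highest in Torin (358).

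Of the start-site group, Eif1a (-0.91 ± 0.21), Eif1 (-0.66 ± 0.16) and Eif5b (-0.60 ± 0.13, no overlap with DMSO) were lower in Halofuginone libraries and Eif5 was higher (0.55 ± 0.14). Within eIF2, Eif2s2 had 197, 251 and 303 scaled CPM, below the DMSO range of 404 to 624.8 (-1.05 ± 0.14, adjusted p = 1.1e-10), while Eif2s3x, the gamma subunit, was higher (0.89 ± 0.34). The direction of Eif2s2 is thus opposite to that in BrefA and Tunicamycin libraries, although Atf4 (0.97 ± 0.19) and Ddit3 (2.30 ± 0.40) rose in all 3. Of the elongation factors, the eEF1B subunits Eef1b2 (-0.77 ± 0.17) and Eef1g (-0.80 ± 0.24) fell, and Eef2 (-0.27 ± 0.14), Eef1a1 (0.08 ± 0.10) and Eif5a were not called. Outside the factors, Ppp1r15a rose by 3.86 ± 0.29 and Mknk2, a kinase that phosphorylates eIF4E, by 1.65 ± 0.28, and Pabpc1, the poly(A)-binding protein, fell by 0.88 on the log2 scale (SE 0.11).

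The promoters of Eif4a1 and Eif4e, which rose, and Eif3f, which fell, are shown because all 3 hold the E box CACGTG, in capitals. Eif4a1 is at chr11:69672404-69672673 on the minus strand with the motif starting 189 bases before the start, and Eif3f at chr7:108934165-108934434 on the plus strand with it 68 bases before. Eif4e, of 2 annotated windows the one at chr3:138527018-138527287 on the plus strand, has it at 228 and 64 bases before.
Eif4a1: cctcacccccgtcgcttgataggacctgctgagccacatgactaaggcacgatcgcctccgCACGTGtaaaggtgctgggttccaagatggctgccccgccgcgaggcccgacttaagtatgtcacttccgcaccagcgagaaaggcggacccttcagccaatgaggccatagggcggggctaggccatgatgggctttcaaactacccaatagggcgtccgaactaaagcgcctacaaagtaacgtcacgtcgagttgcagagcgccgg
Eif4e: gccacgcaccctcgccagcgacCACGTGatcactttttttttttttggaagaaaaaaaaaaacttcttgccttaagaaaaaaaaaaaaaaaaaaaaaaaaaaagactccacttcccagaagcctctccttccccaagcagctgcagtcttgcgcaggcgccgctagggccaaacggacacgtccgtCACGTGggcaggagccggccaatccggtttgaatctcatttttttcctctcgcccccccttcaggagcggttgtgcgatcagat
Eif3f: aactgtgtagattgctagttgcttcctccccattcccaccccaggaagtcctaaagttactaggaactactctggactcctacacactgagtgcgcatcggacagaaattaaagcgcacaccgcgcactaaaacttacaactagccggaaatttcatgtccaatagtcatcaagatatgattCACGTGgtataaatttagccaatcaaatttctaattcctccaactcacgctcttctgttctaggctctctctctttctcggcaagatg

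CACGTG was present in 23.7% of the 59 windows of the factors and in 7.15% of all 32851 windows in the RefSeq table. It occurred in 4 of the 10 factors that rose with Halofuginone and in 2 of the 7 that fell and have a window, so it was found on either side. CCGGAAG, a core bound by ETS proteins, was present in 32.2% of the factors' windows against 8.86% of all. GCGCATGC was in 8.47% against 2.71%, TGACGTCA in 1.69% against 1.79%, and TGATGNAA in 3.39% against 3.97%. A start of C followed by 4 pyrimidines was annotated in 3.39% of windows, those of Eif3f and Eif2s3x, against 2.51%. Windows of one gene overlap, 45 of the 59 factors have one, and a match is a description of the letters only.

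With the Rn45s share of each library as a covariate, 6 factors were called with Halofuginone in place of 23, 2 higher and 4 lower. This is 13.6% of the 44, and 13.6% of all genes were called in the same fit. The Rn45s share of Halofuginone libraries (39.0% to 49.1%) overlaps that of no other library (at most 30.9%). This fit can therefore hardly separate the share from the compound, and nothing is concluded from the lost calls. With Rn45s and Lars2 left out, 9 factors were higher and 13 lower, 22 of them among the 23 (2034 of 5057 genes in all). Eif4a1 and Eif2s2 passed in all 14 alternative fits, with values of 0.58 to 1.33 and -1.42 to -0.93. Eif5 kept its call with the covariate. Eif4b reversed and was called in the other direction (-0.90, adjusted p = 0.0142). Eif4e (-0.09), Eif4h (-0.03), Eif4g1 (-0.62), Eif4ebp2 (-0.68) and Eif3b (-0.42) also turned below 0, and Eif1 (0.02), Eef1b2 (0.01) and Eef1g (0.09) above it, none of these 8 past the threshold. Eif3f (-0.87), Eif3h (-0.83) and Eif3i (-0.68) stayed below 0 without being called.

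**Figure D5:**
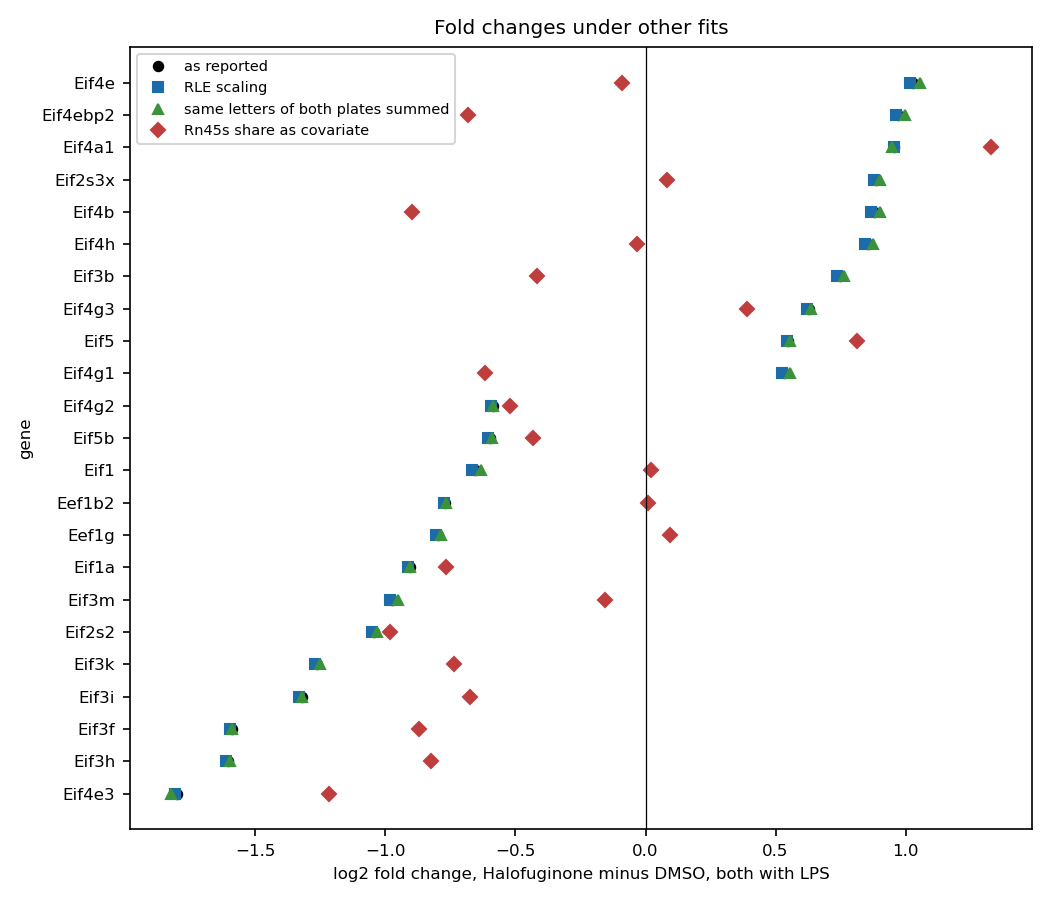
Log2 fold change in Halofuginone minus DMSO libraries for the 23 called factors as reported, under RLE scaling, with the same letters of both plates summed, and with the Rn45s share of each library as a covariate. The first 3 fits lie close together, and the covariate moves Eif4b to -0.90 and leaves Eif2s2 and Eif4a1 on their sides of 0.

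The median annotated transcript length was 2461 bases for the 10 factors that rose, 1310 for the 13 that fell and 1688 for the 21 not called. Across genes, length and the Halofuginone fold change had Spearman's rho of 0.19 over the 44 factors and 0.30 over 4637 tested genes. Genes are not independent replicates and all share the same libraries, and the part of length in the result was not tested.

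Against Torin, which shares no control with it, Halofuginone had 8 factors higher and 11 lower (43.2%), where 36% of all genes were called. With no filter on low counts the split was 3 higher and 17 lower, 14 of them shared, with the median of the same genes moved by -0.33. Of all 16022 genes in that fit, 477 were higher and 1578 lower. Eif1a differed most by test, with 84.3 to 187 scaled CPM in Halofuginone libraries against 286 to 428 in Torin libraries (-1.49 ± 0.21, adjusted p = 1.95e-10). Eif3h (-1.72 ± 0.32), Eif3i (-1.63 ± 0.42), Eif3f (-1.49 ± 0.30) and Eef1b2 (adjusted p = 2.27e-07) were lower, the last 3 without overlap. Over the 8 Halofuginone libraries, Eif3h, Eif3i and Eif3f had 24, 13 and 25 counts. Eif4h (0.94 ± 0.18), Eif4g1 (0.90 ± 0.21), Eif5a (0.83 ± 0.17) and Eif4a1 (0.64 ± 0.11) were higher. With the Rn45s covariate 9 factors were called, 2 higher and 7 lower, where 218 of all 4963 genes were higher and 515 lower. In that fit Eif4b (-0.95), Eif4e (-0.34), Eif4g1 (-0.16) and Eif1 (0.12) changed sign.

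The 15 factors below the filter were Eef1a2, Eef1e1, Eef2k, Eif1ad, Eif1b, the 5 eIF2B genes Eif2b1 to Eif2b5, Eif2d, Eif4e1b, Eif4ebp3, Eif4enif1 and Eif5a2. The exchange factor eIF2B, which reloads eIF2 with GTP and is the target of phosphorylated eIF2, is thus not described: its 5 genes had 1.57 to 3.96 counts per library on average. Eef1a2, the muscle and neuron form of eEF1A, had 7 counts in 96 libraries, and Eif4e1b had 0, which allows up to 3 counts over all libraries by counting error. Among the tested factors, the 12 never called included Eef2, Eif2s1, Eif3e, Eif4a3, Eif4e2 and Eif6. Eef2, which had 346 to 521 scaled CPM in DMSO libraries, had fold changes between -0.10 and 0.07 in the LPS comparison and in the 9 compound groups other than Halofuginone against DMSO.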

How the data were processed

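Counts per gene symbol for 96 libraries were used as deposited. The authors made them from 3′-end libraries (SCRB-Seq in modified form with Nextera, per the labels) by alignment with BWA to mm10, per the submitters' processing notes. For the version of BWA, the annotation, strand use and the treatment of PCR copies the sources used here give nothing, so counts may include copies of one molecule. All values were whole numbers with a different total in each library (80196 to 379198), and low depth limits the rarer factors. Counts of libraries with the same letter on both plates differed by more than sampling noise, which does not show that they came from separate cultures: within groups their deviations correlated by over 0.1 in 7 of 12 groups. Each library was counted as 1 replicate, and a fit with the same letters summed was run beside it.

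edgeR 4.0.16 in R 4.3.3 was fitted to all libraries: filterByExpr on the groups (4963 genes), TMM scaling, group and plate as terms, robust quasi-likelihood F tests, two-sided, Benjamini-Hochberg adjustment over all genes of a comparison, threshold 0.05. The 13 comparisons were LPS, 10 compounds against DMSO, Halofuginone against Torin and Tunicamycin against BrefA. Factors and lists were chosen with earlier results of these data known. Genes named were, per comparison, up to 12 called factors with the largest changes and a mean of 30 or more scaled CPM in the higher group, and a fixed set of core factors; of other lists, up to 4 called genes and the 2 first-listed. The self-test on simulated counts used the same code. Alternatives were RLE and upper-quartile scaling, no filter, DESeq2 1.42.0, plates alone, the same letters of both plates summed, a replicate block, leaving out replicate letters, the Rn45s share as a covariate, Rn45s and Lars2 left out, and Tunicamycin libraries left out; upper-quartile scaling and the fit without 2 Tunicamycin libraries were chosen after seeing the data. Gene positions are from GENCODE M21 and promoters from RefSeq (GRCm38.p6), where 45 of 59 factors had a window, the start of 38 matching a GENCODE transcript. Python 3.11.15 with matplotlib 3.10.9 drew the figures.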

Additional observations from a re-analysis of the deposited data

Results flagged for a closer look

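For 12 factors shown by library, each of the 12 groups of 8 libraries was screened for a highest or lowest library far from the rest, 144 sets in all, and 4 were found. About 1 in 20 sets is found by chance. Eif3h had 128 scaled CPM in Halofuginone plate 2 E, where the next library had 55.5, and 154 in ZVAD plate 1 E, where the next had 120. Eif4h had 371 in Tunicamycin plate 1 H, which is also one of the libraries least like its group, and the next had 256. Eif1 had 226 in BrefA plate 1 F, the lowest of that group, and the next had 386.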

How the results depend on the processing

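Of the 13 counts of called factors, those for Dexa, Baflo and ZVAD were 0 in every fit run. On plate 1 alone the counts were 0 with Torin, 1 with pGE2, 0 with Caspase-1, 15 with Halofuginone, 3 with BrefA, 3 with Tunicamycin and 12 for Halofuginone minus Torin. Of all 5118 genes, that fit called 448, 373, 200, 1240, 519, 356 and 1020, in the same order. On plate 2 alone the counts of called factors were 5 for LPS, 2 with Torin, 3 with tBHQ, 1 with pGE2, 0 with Caspase-1, 13 with Halofuginone, 0 with Tunicamycin, 12 for Halofuginone minus Torin and 4 for Tunicamycin minus BrefA. Of all 4886 genes, 882, 329, 1129, 260, 3, 1198, 5, 1098 and 371 were called there, in the same order. A plate alone has 4 libraries per group. Without the filter on low counts (16022 genes) 3 factors were called with Torin, 1 with pGE2, 1 with Caspase-1 and 2 with Tunicamycin. Over all genes that fit called 758, 548, 86 and 143, in the same order. RLE scaling, upper-quartile scaling and leaving out Rn45s and Lars2 each gave 1 with pGE2 and 1 with Caspase-1. Over all genes they called 560, 553 and 546 with pGE2 and 150, 145 and 159 with Caspase-1. With the same letters of both plates summed, 1 factor was called with Caspase-1, 2 with Tunicamycin and 5 for Tunicamycin minus BrefA. Of all 6947 genes, 57, 124 and 737 were called there. The Rn45s covariate gave 1 factor with Caspase-1, 6 with Halofuginone and 9 for Halofuginone minus Torin, and the fit without Tunicamycin plate 2 F and plate 1 H gave 2 with Tunicamycin. Over all genes the covariate fit called 66, 677 and 733 of 4963, and the other fit 121 of 5230. The cause of these changes was not tested. With each replicate letter left out in turn on both plates, the counts of called factors ran from 6 to 10 for LPS, 3 to 5 with Torin, 3 to 6 with tBHQ, 0 to 1 with pGE2, 0 to 2 with Caspase-1, 16 to 20 with Halofuginone, 4 to 7 with BrefA, 1 to 3 with Tunicamycin, 13 to 18 for Halofuginone minus Torin and 5 to 7 for Tunicamycin minus BrefA. In the same fits, 1445 to 1705 of all genes were called for LPS, 543 to 664 with Torin and 1414 to 1759 with tBHQ. With pGE2 403 to 494 were called, with Caspase-1 18 to 69, with Halofuginone 1534 to 1749 and with BrefA 645 to 734. Tunicamycin had 95 to 158, Halofuginone minus Torin 1398 to 1586 and Tunicamycin minus BrefA 558 to 695.

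Signs reversed with the Rn45s covariate for Eif4e (-0.0918), Eif4ebp2 (-0.68), Eif1 (0.0222), Eif3b (-0.42), Eif4b (-0.90), Eif4h (-0.0316), Eif4g1 (-0.62), Eef1b2 (0.0108) and Eef1g (0.0937) with Halofuginone, and for Eif4g1 (-0.16), Eif1 (0.12), Eif4b (-0.95) and Eif4e (-0.34) against Torin; on plate 2 alone they did for Eef1a1 (-0.10) and Eif5b (0.0158) in Tunicamycin minus BrefA. Over all named factors and fits, 5915 values kept their side of the threshold, 275 lost a call and 38 gained one. Another 15 changed sign with a call in at least 1 of the 2 fits compared. Sign changes without a call in either fit are among the 5915 and were not counted apart.

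Deviations of the same plate and letter correlated weakly across LPS groups, by 0.04 on average (-0.05 to 0.11 over 55 pairs of groups, 3227 genes). At this depth a weak correlation cannot settle whether letters pair the libraries of different compounds. A replicate block of plate and letter over the LPS libraries gave 0 called factors with Dexa, Baflo and ZVAD, 7 with Torin, 8 with tBHQ, 2 with pGE2, 2 with Caspase-1, 23 with Halofuginone, 8 with BrefA, 4 with Tunicamycin, 20 for Halofuginone minus Torin and 8 for Tunicamycin minus BrefA. Of all 4770 genes it called 188 with Dexa, 0 with Baflo and ZVAD, 864 with Torin and 1792 with tBHQ. It called 595 with pGE2, 228 with Caspase-1, 2011 with Halofuginone, 892 with BrefA and 277 with Tunicamycin. Halofuginone minus Torin had 1790 and Tunicamycin minus BrefA 900. No paired analysis was possible for LPS because NoStim libraries carry other letters. Libraries of the same group and letter on both plates correlated by 0.13 on average. Low counts limit the factors with few reads, above all in Halofuginone libraries, where 1 count is worth up to 18.7 scaled CPM.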

Other observations

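Other lists around translation were called in places. Of 7 listed termination and recycling factors, 4 were tested. Gspt1, the GTPase of the termination complex, rose with LPS (0.94 ± 0.17, adjusted p = 1.89e-06) and was lower with Torin (-0.72 ± 0.18) and tBHQ (-0.58 ± 0.17) than in DMSO libraries, and Etf1, which reads the stop codon, rose with Halofuginone (0.55 ± 0.19). Of 17 listed genes of mTOR and MNK signalling, 8 were tested. With LPS 2 rose and 3 fell, where 36.8% of all genes were called, among them Sesn1, a negative regulator of mTOR complex 1 (-3.83 ± 0.54), and Rictor, a subunit of mTOR complex 2 (1.35 ± 0.29). Sesn1 was higher with tBHQ (2.40 ± 0.56), and Ddit4, another negative regulator, rose with pGE2 (3.61 ± 0.50). With Halofuginone 4 of the 8 rose and 1 fell, where 40.3% of all genes were called: Sesn1 (1.86 ± 0.71), Mknk2, Ddit4 (1.62 ± 0.69) and Tsc2, an inhibitor of mTOR complex 1 (1.40 ± 0.30), were higher and Rps6, a ribosomal protein phosphorylated downstream of mTOR, was lower (-1.32 ± 0.17). Of 10 mitochondrial translation factors, 3 were tested, and Mtif2, the initiation factor, was lower with Halofuginone (-1.06 ± 0.46, adjusted p = 0.0352), the single call against DMSO. Of 9 genes that modify eIF5A or eEF2, 1 was tested and 0 were called by edgeR in any comparison. These fold changes are log2 from the same edgeR fit, and no list was tested as a whole.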
